A study of Mus musculus with 194 samples.

Results

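The cells described here are 37 single L1210 cells, taken at either of 2 stages of the interval between divisions. Newborn cells were released at most 2.0 h after the division that made them, and mid-interval cells between 4.0 and 7.0 h after it. Of the 194 libraries of the series, 88 came from L1210 cells and 81 of these were retained, since they were not marked as doublets and had at least 1000 genes above 0 TPM (the abundance of a gene's transcripts, corrected for their length and expressed relative to all transcripts of the cell). The newborn group held 15 retained cells of 5 lineages and the mid-interval group 22 retained cells of 7 lineages, and the minimum of genes removed 1 newborn and 2 mid-interval libraries. The newborn cells were 0.354 to 1.79 h old and the mid-interval cells 4.38 to 6.78 h old, while the nearest cells outside the limits were 2.05, 3.94 and 7.53 h old.

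L1210 is a mouse lymphocytic leukemia line of a DBA strain that proliferates without stimulation. Founding cells were grown for some generations in an array of microfluidic traps in RPMI medium with serum and antibiotics, time-lapse imaging recorded each division, and single cells were flushed out for Smart-Seq2, which copies polyadenylated RNA into cDNA. Neither group was treated or altered in any way, and the groups were defined by time since division alone. They hold different lineages, so differences between lineages cannot be told apart from differences with time. The other cells of the series were CD8+ T-cells of C57BL/6J mice, activated with antibodies against CD3 and CD28, cultured with IL2 in the same device and grouped here by the same times.

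A lineage is the progeny of 1 founding cell, and it served as the replicate. The labels name no separate cultures, so the p values cover the spread between these lineages, which may be technical in part. Levels are means of ln(TPM + 1) over the cells of a lineage, differences are newborn minus mid-interval on this scale, and ± is the standard error of a difference unless given as SD. The question was which transcripts differ between a cell that has just divided and one some hours further on.

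A cell that leaves mitosis still carries transcripts that were made for mitosis, among them those of the kinases, spindle proteins and cofactors of the anaphase-promoting complex, and most of these are degraded or diluted in G1. Toward the G1/S boundary E2F factors switch on the genes for origin licensing, the replication fork and nucleotide synthesis. In S phase the replication-dependent histone genes are expressed together to package the new DNA. Their mRNAs end in a stem-loop that binds the protein Slbp in place of a poly(A) tail, so a method that primes on poly(A) captures them only in part.

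The histone stem-loop is shown because this family had the largest median difference of the gene lists described below. In GENCODE vM21 transcripts of the GRCm38 build, a perfect stem of 6 paired bases in each arm around a loop of 4 bases was found near the 3′ end of 14 of the 47 histone genes tested, in 4 forms. Capitals mark the paired arms, and the loop is in lower case.
Hist1h2ao and Hist1h2ab: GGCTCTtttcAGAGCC
Hist1h2bb, Hist1h2bk and Hist1h3c: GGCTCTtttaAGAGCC
Hist1h4m: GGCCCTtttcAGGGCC
The first form was shared by 9 genes. No such stem was found in the annotated transcripts of Hist2h3c2 and Hist2h3b. Only the last 150 bases of each transcript were searched, for a first arm beginning GG, a loop beginning TT and no G-U pairs. A gene without a match is therefore not shown to lack the stem-loop.

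The identity of the cells fitted the label. The 16 B-lineage markers in the table summed to 1715 to 5180 TPM in newborn cells and 719 to 6633 TPM in mid-interval cells. Cd79a, a chain of the B-cell receptor, and Igll1, a part of the surrogate light chain of precursor B-cells, had medians of 482 and 808 TPM in newborn and 480 and 747 TPM in mid-interval cells. The 11 T-cell markers summed to at most 149 TPM in newborn and 58.8 TPM in mid-interval cells, and Cd3e, Cd3g, Cd4 and Cd5 were at 0 in all 37 cells. Others were detected. Cd28 was above 0 in 12 of 15 newborn and 21 of 22 mid-interval cells, with medians of 19.51 and 21.85 TPM. Thy1 was above 0 in 10 newborn and 11 mid-interval cells, at up to 91.87 and 44.13 TPM. Myeloid markers summed to at most 62.1 and 71.7 TPM, and erythroid markers to at most 35.9 and 13.8 TPM, with Elane, S100a8, S100a9, Hbb-b1 and Hba-a2 at 0 in all cells. The myeloid marker Cd14 was above 0 in 8 newborn and 13 mid-interval cells, Cd68 in 10 and 9, and Lyz2 in 7 and 9.

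A pair of lineages stood apart. Newborn lineage 4 averaged 10068 detected genes, and Rn45s, the precursor of ribosomal RNA, took 12.8% of its TPM. Mid-interval lineage 3 averaged 9961 detected genes, with 15.6% of the TPM in Rn45s. The other newborn lineages had 7480 to 8908 detected genes and 21.2 to 25.1% Rn45s. The other mid-interval lineages had 4648 to 8723 detected genes and 18.5 to 26.6% Rn45s, the least detected genes being in mid-interval lineage 2. Over the 10536 genes tested, the profile of newborn lineage 4 was closest to that of mid-interval lineage 3 (Spearman's rho 0.964 across genes), but mid-interval lineage 3, which had the most detected genes of its group, was also the closest to every other lineage of both groups (0.737 to 0.935). Outside both windows, a lineage of 2 cells at 9.32 and 9.34 h had similar values, with 10442 detected genes and 12.5% Rn45s. Newborn lineage 4 also had histone transcripts at the mid-interval level, as described below, and whether its label holds cannot be told from these values. Differences of genes given below whose groups separated only without this pair of lineages are given with and without it. As a group, newborn lineages did not differ measurably from mid-interval lineages in detected genes (8464 ± 1051 against 7948 ± 1633, SD, n = 5 and 7, exact permutation test, 2-sided, p = 0.61) or in the Rn45s share (21.3 ± 5.01% against 20.4 ± 3.38%, SD, p = 0.715), where the smallest p that the 792 splits allow is 0.00126.

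**Figure D1:**
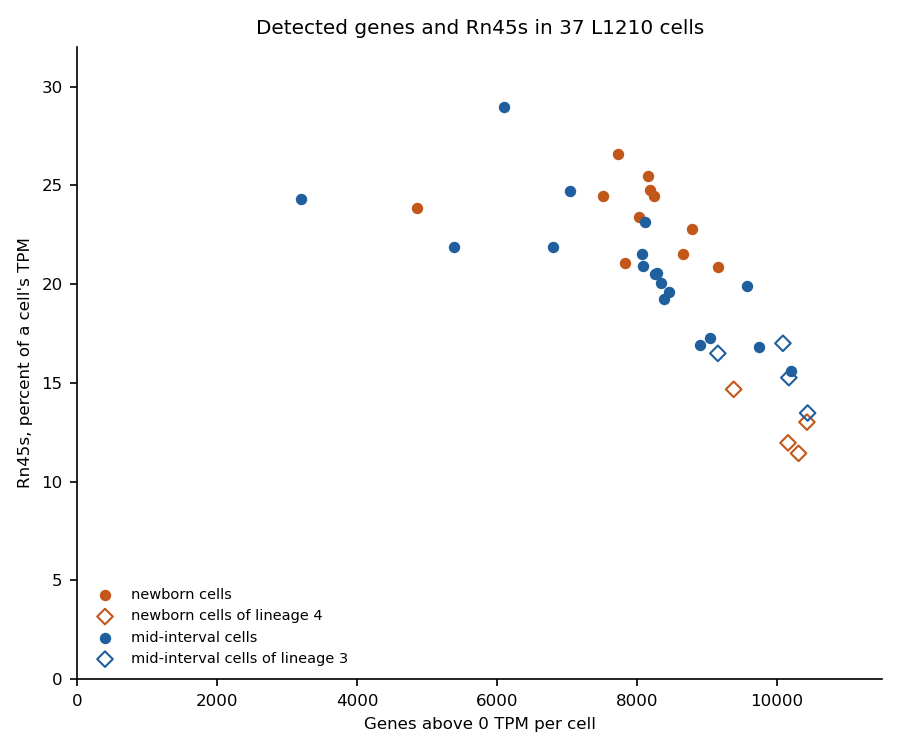
Genes above 0 TPM (x axis) and the percent of TPM taken by Rn45s (y axis) in each of the 15 newborn (orange) and 22 mid-interval (blue) cells, with diamonds for newborn lineage 4 and mid-interval lineage 3. The 4 cells of newborn lineage 4 lie at 11.4 to 14.7% Rn45s, below the 20.9 to 26.6% of the other 11 newborn cells.

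Across all 10536 genes tested, none passed an adjusted p of 0.05 in either direction (limma, Benjamini-Hochberg, 0% called). Without adjustment, 280 genes were higher in newborn cells at p under 0.05 (2.66% of genes tested) and 153 were higher in mid-interval cells (1.45%), 433 or 4.11% in all. Genes higher in mid-interval cells thus made up 35.3% of these, and 60.1% with the number of detected genes as a covariate, where the median difference of all genes was -0.01. In 20 genes every newborn lineage lay above every mid-interval lineage (0.19%), and in 10 genes every one lay below (0.0949%). The median difference of all genes was 0.10, with 6507 genes higher in newborn cells. Values below from all lineages are thus to be read against 0.10 rather than 0. With 1 lineage left out this median changed. It was -0.03 without mid-interval lineage 2, 0.03 without newborn lineage 4, 0.08 without newborn lineage 5 and 0.18 without mid-interval lineage 3. List medians with a lineage left out are to be read against the median of the same fit. The lowest adjusted p was 0.786, for the interferon-inducible gene Ifi27l2a, which averaged 1.61 in newborn and 0.17 in mid-interval lineages, a difference of 1.44 ± 0.28. It was 0.981 for Cdc20 and for each replication gene given with a p value below.

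With newborn lineage 4 and mid-interval lineage 3 left out for their detected genes and Rn45s share, 315 genes were higher in newborn cells at unadjusted p under 0.05 (2.99%) and 234 in mid-interval cells (2.22%). Then 4 genes were below the adjusted threshold (0.038%), the replication-dependent histones Hist1h2ao, Hist1h2ab, Hist2h3c2 and Hist2h3b, all with higher values in mid-interval cells. Leaving out newborn lineage 4 alone gave 5 such genes (0.0475%), these 4 and Kpna2. The lineages were left out after the data were seen, when the high histone and Kpna2 values of newborn lineage 4 were known. Values without them are therefore descriptions and support no call, and with all lineages the adjusted p of each of these genes was 0.981.

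**Figure D2:**
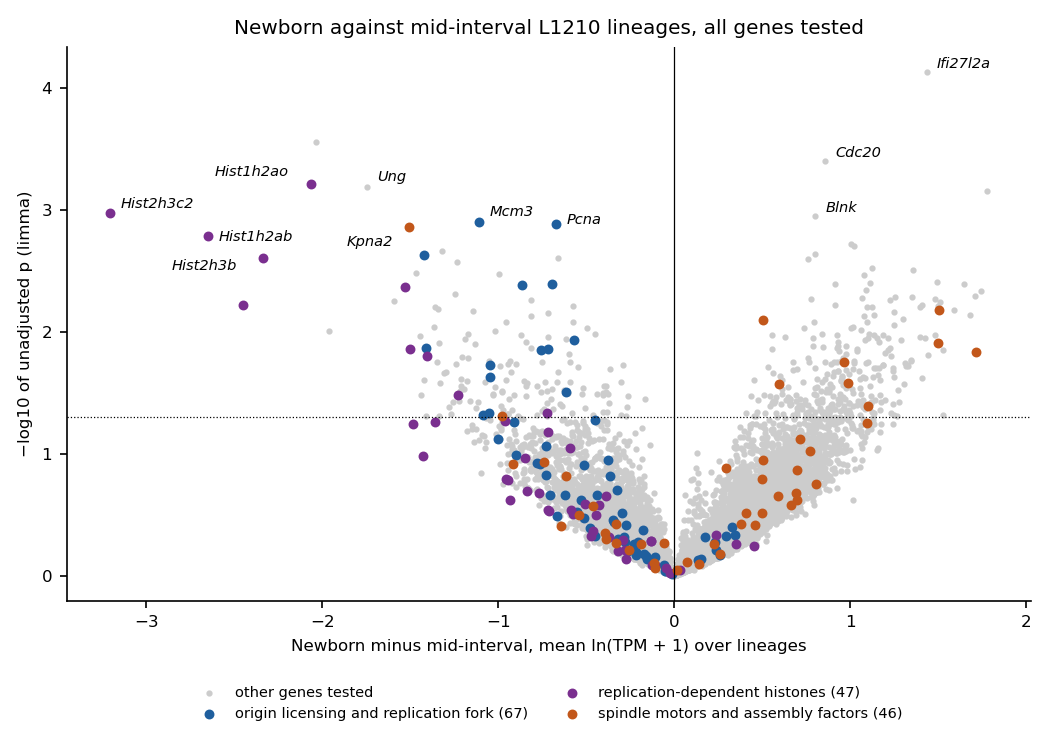
The newborn minus mid-interval difference in ln(TPM + 1) of each of the 10536 genes (x axis) and the −log10 of its unadjusted p in limma (y axis), over all 12 lineages, with the dotted line at p = 0.05. Histone (purple) and replication genes (blue) lie mainly on the left of 0, and 8 of the 46 spindle genes (orange) lie above the line on the right.

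Histone genes had the largest median difference of the lists examined. Of the 68 replication-dependent histone genes of the list 47 passed the filter on low values. Of these, 43 were higher in mid-interval cells, as were 4029 of all 10536 genes tested, and 4 were higher in newborn cells. The median difference was -0.59 against 0.10 for all genes. At unadjusted p under 0.05, 10 (21.3%) were higher in mid-interval cells, where 1.45% of all genes were, and none was higher in newborn cells. With 1 lineage left out the median ranged from -1.0, without newborn lineage 4, to -0.54. Over the 18 other alternatives it ranged from -1.43 to -0.30. Without the pair of lineages the median was -0.91 and 21 were higher in mid-interval cells at unadjusted p under 0.05 (background 2.22% of all genes). In 8 genes of the list the groups then did not overlap (background 0.674% of all genes). A gene that passes the filter only through the group where it is high has to differ, so the counts over those that passed are a description.

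Hist1h2ao encodes a core histone H2A and lies at chr13:21810465-21810944. Its level was 3.60, 5.22, 4.41, 7.88 and 5.26 in newborn lineages 1 to 5. In mid-interval lineages it ranged from 6.16 to 7.99 with a median of 7.41. Newborn lineage 4 thus lay within the mid-interval range, whereas the other 4 newborn lineages lay below all 7 mid-interval lineages. The difference was -2.07 ± 0.50 (unadjusted p = 0.000621), a 7.90-fold higher value in mid-interval cells, and -2.71 ± 0.36 without the pair of lineages, one of which is newborn lineage 4 with its known value of 7.88.

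Hist2h3c2, an H3 gene at chr3:96238108-96239127, measured 3.43, 0.00, 1.05, 7.24 and 3.66 in the newborn lineages. The mid-interval lineages held 4.95 to 6.96, with a median of 6.20. Again newborn lineage 4 alone reached the mid-interval range, above its highest lineage. The transcript was above 0 TPM in 11 of 15 newborn and in all 22 mid-interval cells. Its difference was -3.21 ± 0.82 in all lineages and -4.13 ± 0.61 without the pair.

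Hist2h3b, a further H3 gene of the same cluster at chr3:96268654-96269141, was at 4.25, 2.22, 3.94, 8.22 and 5.31 in newborn lineages and at 5.78 to 7.83 in mid-interval lineages (median 7.04). The difference was -2.34 ± 0.67, and -3.08 ± 0.47 without the pair. Hist1h2ab, an H2A gene at chr13:23751126-23751598, was at 0 in newborn lineages 3 and 5, at 0.70 and 1.27 in lineages 1 and 2, and at 5.19 in lineage 4. It was detected in 6 newborn cells and in 20 mid-interval cells, whose lineages ranged from 2.81 to 5.23. Its difference was -2.65 ± 0.72, and -3.51 ± 0.51 without the pair. Histone genes have near-identical copies, so the share of reads that belongs to each of these genes is uncertain, and the values are better read for the family than for the gene.

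By class, all 4 linker histone H1 genes tested were higher in mid-interval cells, with a median difference of -1.45 and 3 at unadjusted p under 0.05 (background 1.45% of all genes). The 13 H2A genes had a median of -0.72, the 11 H3 genes -0.84 and the 6 H4 genes -0.66. The 13 H2B genes lay nearest to the background with -0.13, between -0.96 and 0.45. Slbp, which binds the stem-loop and is needed for histone mRNA processing, was at 4.81, 3.93, 3.41, 4.57 and 4.50 in newborn lineages and at 4.68 to 5.91 in mid-interval lineages, a difference of -0.76 ± 0.28 (unadjusted p = 0.0143).

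**Figure D3:**
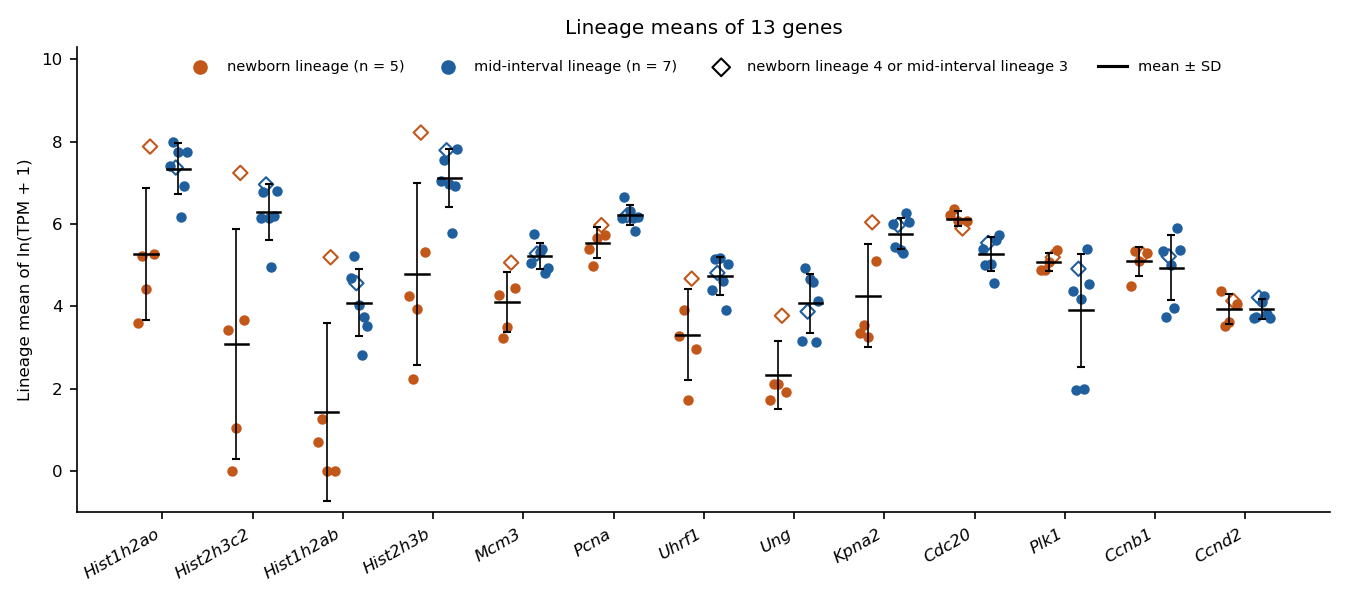
Lineage means of ln(TPM + 1) (y axis) of 13 genes in the 5 newborn (orange) and 7 mid-interval lineages (blue), with bars at mean ± SD and diamonds for newborn lineage 4 and mid-interval lineage 3. The newborn diamond of the histones lies with the mid-interval points, for Hist1h2ao at 7.88 while the other newborn lineages lie at 3.60 to 5.26.

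The single cells, of which the lineage means are averages, showed this split with some overlap for Hist1h2ao. In the 11 newborn cells outside lineage 4, Hist1h2ao was between 0 and 5.72 with a median of 4.97, and Hist2h3c2 was at 0 in 4 of them. All 4 cells of newborn lineage 4, recorded at 0.354 to 1.79 h, held 7.72 to 8.10 for Hist1h2ao and 7.01 to 7.46 for Hist2h3c2. They also held 4.62 to 5.01 of Top2a, where the other newborn cells held 0 to 3.85. The 22 mid-interval cells held 5.19 to 8.58 of Hist1h2ao. Their lowest values came from the cells of mid-interval lineage 5 at 5.15 and 5.17 h, with 5.19 and 5.20, while the third cell of that lineage, at 6.10 h, held 8.09. The number of detected genes and the Rn45s share of newborn lineage 4 stood apart as well, as given above, and their part in its histone level was not tested. With detected genes as a covariate over all lineages the difference of Hist1h2ao was -2.17, and it did not pass the threshold.

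Cells outside both windows filled in the time between. The 18 L1210 cells of 2.05 to 2.86 h, of 7 lineages, held a median of 5.14 for Hist1h2ao and of 3.64 for Hist2h3c2, near the newborn values. The 4 cells of 3.78 to 3.94 h, all of 1 lineage, held medians of 7.14 and 5.63. The 22 cells older than 7.0 h spread from 0 to 8.15 for Hist1h2ao. The 3 of them at 0 had 4951, 2718 and 5734 detected genes, where the median of these older cells was 8667. Some newborn or mid-interval lineages also held cells from between the windows, while none held both newborn and mid-interval cells. In mid-interval lineage 4 the cells at 2.05 and 2.11 h averaged 4.79 for Hist1h2ao and their relatives at 4.93 and 4.98 h averaged 7.76. In mid-interval lineage 2 the cells at 2.79 and 2.81 h averaged 4.75 and those at 4.42 and 4.45 h averaged 7.99, although the older cells had fewer detected genes, 4647 against 8259. Within newborn lineage 3 the level was 4.41 at 0.567 and 0.633 h and 4.58 at 2.77 and 2.86 h, so it differed little over that time. In newborn lineage 5 it was 5.26 at 1.33 and 1.38 h and 2.00 at 2.50 and 2.52 h, the opposite order. These pairs are single lineages and carry no test.

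**Figure D4:**
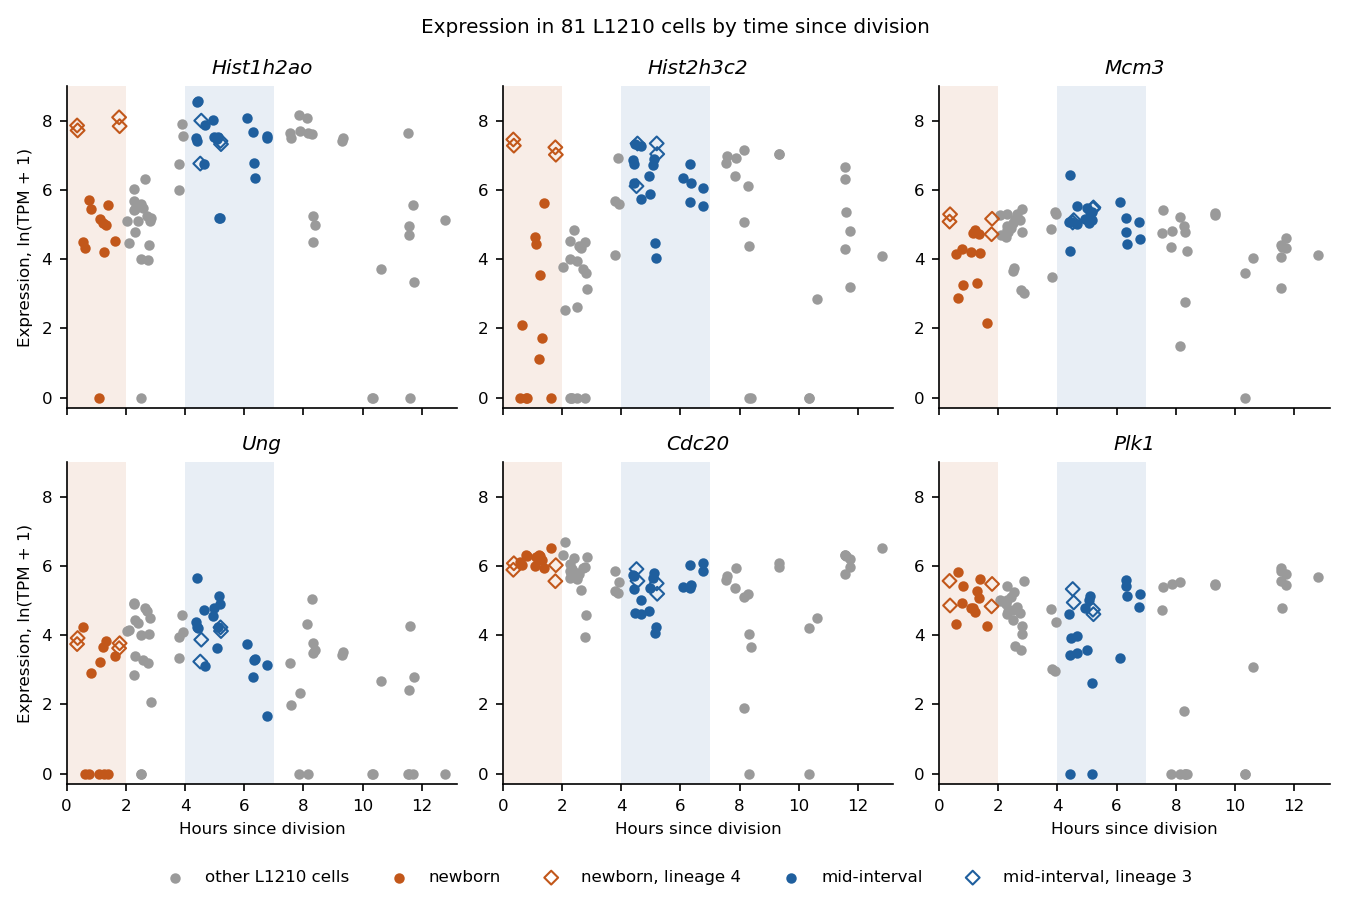
Expression as ln(TPM + 1) (y axis) against hours since division (x axis) in all 81 retained L1210 cells for 6 genes, with the newborn window shaded orange, the mid-interval window blue, and diamonds for newborn lineage 4 and mid-interval lineage 3. The 11 other newborn cells lie at 0 to 5.72 for Hist1h2ao and the mid-interval cells at 5.19 to 8.58, while Cdc20 lies at 5.56 to 6.51 in newborn cells and at 4.07 to 6.09 in mid-interval cells.

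Genes of DNA replication leaned the same way with smaller differences. Of 67 origin licensing and replication fork genes tested, 58 were higher in mid-interval cells, as were 4029 of all 10536 genes tested. The median difference was -0.37. Of the 67 genes, 14 (20.9%) were at unadjusted p under 0.05, all higher in mid-interval cells, against a background of 1.45%. None passed the adjusted threshold with or without the pair of lineages. Without the pair the median was -0.46 and the count 17, against a background of 2.22% of all genes in that fit. With 1 lineage left out the median ranged from -0.56, without mid-interval lineage 2, to -0.29. The 6 subunits of the MCM2 to MCM7 helicase had a median of -0.59 and all were higher in mid-interval cells, 4 of them at unadjusted p under 0.05. The 11 DNA polymerase and primase genes had a median of -0.35, the 5 replication factor C genes, which load the clamp, -0.21, and the 6 genes of the origin recognition complex -0.18, with none at unadjusted p under 0.05.

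Mcm3, a subunit of the helicase, was at 4.28, 3.23, 3.50, 5.06 and 4.44 in newborn lineages and at 4.80 to 5.75 in mid-interval lineages (median 5.28). Newborn lineage 4 was the only one to overlap, and the difference was -1.11 ± 0.29 (unadjusted p = 0.00126), or -1.34 ± 0.30 without the pair. Mcm5, of the same helicase, differed by -0.57 ± 0.20, or -0.71 ± 0.22 without the pair. Pcna, the sliding clamp of the fork, was at 5.39, 4.98, 5.66, 5.97 and 5.72 in newborn lineages and at 5.84 to 6.65 in mid-interval lineages, a difference of -0.67 ± 0.18 that is 1.96-fold, or -0.78 ± 0.19 without the pair. Uhrf1, which brings the maintenance DNA methyltransferase to replicated DNA, differed by -1.42 ± 0.40, or -1.75 ± 0.41 without the pair. Tipin, a protein that protects stalled forks, differed by -0.70 ± 0.21, or -0.85 ± 0.23 without the pair. The licensing factor Cdc6 was at 0.87, 1.21, 0.77, 2.95 and 2.91 in newborn lineages and between 1.86 and 4.0 in mid-interval lineages, a difference of -1.41 ± 0.51.

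Its partner Cdt1 did not separate the groups. It measured 4.65 to 5.62 in newborn and 4.64 to 5.75 in mid-interval lineages, and the difference of -0.06 ± 0.26 had a 95% interval of -0.59 to 0.48. Gmnn, the inhibitor of Cdt1, differed by -0.34 ± 0.37.

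Ung, the glycosylase that removes uracil from DNA, was at 1.72, 2.10, 2.12, 3.77 and 1.91 in newborn lineages. In mid-interval lineages it lay between 3.12 and 4.93, with a median of 4.13. Newborn lineage 4 was the only newborn lineage in this range, and the difference was -1.75 ± 0.43 (unadjusted p = 0.000655), or -2.14 ± 0.43 without the pair. The transcript was above 0 TPM in 10 of 15 newborn and in all 22 mid-interval cells. The list for homologous recombination and mismatch repair does not hold Ung. Of its 31 genes 21 were higher in mid-interval cells, as were 4029 of all 10536 genes tested. Its median was -0.24, and 2 genes, both higher in mid-interval cells, were at unadjusted p under 0.05 (6.45%, background 1.45%). Among them Fancg, a Fanconi anemia protein, was at 0 in every newborn lineage but lineage 4, which held 2.66, and at 0.84 to 2.59 in mid-interval lineages, a difference of -1.18 ± 0.49, or -1.57 ± 0.36 without the pair.

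Nucleotide synthesis gave 5 of 34 genes at unadjusted p under 0.05 (14.7%, background 1.45%), all higher in mid-interval cells. The median was -0.14 against 0.10 for all genes. Rrm2, the regulated subunit of ribonucleotide reductase, was at 4.83 to 5.43 in newborn and 5.18 to 5.98 in mid-interval lineages, a difference of -0.57 ± 0.19. The folate enzymes Shmt1 and Mthfd2 differed by -0.66 ± 0.26 and -0.40 ± 0.17, and Shmt1 by -0.85 ± 0.29 without the pair.

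The genes that regulate G1 showed little movement as a list. Of 22 tested, 11 were higher in each group and the median was -0.01. At unadjusted p under 0.05, 1 was higher in mid-interval cells (4.55%, background 1.45%). That gene was Ccne2, a cyclin E that activates Cdk2 before S phase, at 1.77, 0.00, 0.00, 2.80 and 2.74 in newborn lineages and at 0.79 to 3.95 in mid-interval lineages, a difference of -1.34 ± 0.63. Ccne1 differed by -0.98 ± 0.50 and the repressor E2f8 by -1.07 ± 0.58. The D cyclins, which respond to growth signals, were level. Ccnd2 averaged 3.94 in both groups with a difference of 0.00 ± 0.26 (95% interval -0.54 to 0.55), and Ccnd3 differed by 0.18 ± 0.18. E2f1 differed by 0.16 ± 0.47 and the CDK inhibitor p27, Cdkn1b, by -0.03 ± 0.29, with levels near the lower end of detection. The CDK inhibitor p21, Cdkn1a, was above 0 in 7 of 15 newborn and in 2 of 22 mid-interval cells. Both of these were of mid-interval lineage 4, which averaged 3.74, and the difference was 1.00 ± 0.56.

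In mitotic genes the picture was mixed. Cdc20, which activates the anaphase-promoting complex so that cyclin B is degraded, was at 6.22, 6.37, 6.07, 5.89 and 6.06 in newborn lineages. In mid-interval lineages it ranged from 4.57 to 5.72 with a median of 5.39. No newborn lineage overlapped a mid-interval lineage, newborn lineage 4 included. The difference was 0.86 ± 0.20 (unadjusted p = 0.000398, the third lowest of all genes), which is 2.36-fold, and 0.96 ± 0.23 without the pair, and it did not pass the adjusted threshold in either case.

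Spindle motors and assembly factors had 8 of 46 genes (17.4%) higher in newborn cells at unadjusted p under 0.05, against 2.66% of all genes. At the same threshold 2 (4.35%, background 1.45%) were higher in mid-interval cells. The median was 0.34, and it was 0.17 without mid-interval lineage 2 and 0.22 without newborn lineage 5. The medians of all genes were -0.03 and 0.08 in these fits. Dlgap5, which stabilizes kinetochore fibres, was at 2.99 to 4.01 in newborn and 0 to 2.90 in mid-interval lineages, without overlap, a difference of 1.51 ± 0.49. Kif22, a chromosome-binding kinesin, was at 4.2 to 5.09 in newborn lineages. It was at 1.13 to 4.6 in mid-interval lineages, and differed by 1.5 ± 0.54. Tubb4b, a beta-tubulin, was at 6.69 to 7.02 and at 5.59 to 6.93, a difference of 0.51 ± 0.17.

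Kpna2, an importin that also regulates spindle assembly factors, went the other way within this list. It was at 3.35, 3.54, 3.26, 6.04 and 5.11 in newborn lineages and at 5.30 to 6.26 in mid-interval lineages, and only newborn lineage 4 overlapped. The difference was -1.51 ± 0.40 in all lineages, -1.92 ± 0.35 without the pair and -1.95 ± 0.32 without newborn lineage 4 alone.

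Mitotic kinases, cyclins and checkpoint genes had a median of 0.27 over 34 genes, with 25 higher in newborn cells, where 61.8% of all genes were. Of these genes 2 were at unadjusted p under 0.05 (5.88%, background 2.66%), and 1 of those higher in mid-interval cells was (2.94%, background 1.45%). The median was 0.07 without mid-interval lineage 2 and 0.17 without newborn lineage 4. The medians of all genes were -0.03 and 0.03 in these fits. Plk1, the polo kinase of mitotic entry and exit, was at 4.88, 4.87, 5.07, 5.19 and 5.36 in newborn lineages and at 1.97 to 5.38 in mid-interval lineages. Mid-interval lineages 2 and 5 were far below the rest with 1.97 and 1.98, and the difference was 1.17 ± 0.51 (unadjusted p = 0.0332). Cdc25c, the phosphatase that activates Cdk1, was at 3.22 to 4.22 in newborn and 0 to 3.28 in mid-interval lineages, and differed by 1.75 ± 0.54. Aurkb, the kinase of the chromosomal passenger complex, was higher in mid-interval lineages, 3.92 to 5.04 against 1.45 to 4.93, a difference of -1.21 ± 0.45. Pttg1, the securin, differed by 0.83 ± 0.40, or 1.00 ± 0.46 without the pair. Its difference was 0.44 without mid-interval lineage 2, which held 2.44.

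Ccnb1, the mitotic cyclin B, did not follow Cdc20. It was at 4.49 to 5.35 in newborn and 3.74 to 5.90 in mid-interval lineages, a difference of 0.16 ± 0.33 with a 95% interval of -0.52 to 0.85, and the sign turned to -0.04 without mid-interval lineage 2, the lineage of fewest detected genes. Ccna2, a cyclin of S phase and mitosis, differed by 0.44 ± 0.26, and Ube2c, the ubiquitin-conjugating enzyme of the anaphase-promoting complex, by 0.28 ± 0.31. Aurka, a kinase of the spindle poles, differed by -0.11 ± 0.58 and Wee1, which restrains Cdk1, by -0.72 ± 0.53.

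The list of the anaphase-promoting complex had a median of 0.11 over 18 genes. At unadjusted p under 0.05, Cdc20 was higher in newborn cells (5.56%, background 2.66%). At the same threshold Anapc13, a subunit, and Fbxo5, the inhibitor Emi1, were higher in mid-interval cells (11.1%, background 1.45%). Fbxo5 was at 0 in newborn lineages 1 and 3, at 0.57, 4.01 and 3.0 in lineages 2, 4 and 5, and at 1.48 to 4.17 in mid-interval lineages, a difference of -1.96 ± 0.68, or -2.53 ± 0.67 without the pair. Centromere and kinetochore genes had a median of -0.04 over 34 genes. At unadjusted p under 0.05, 2 were higher in newborn cells (5.88%, background 2.66%) and 3 in mid-interval cells (8.82%, background 1.45%). Cenpa, the histone H3 variant of centromeres, was at 5.00 to 5.62 in newborn and 2.26 to 5.16 in mid-interval lineages. Its difference was 1.22 ± 0.45, or 1.43 ± 0.52 without the pair and 0.90 without mid-interval lineage 2. Ska3, a microtubule-binding protein of the kinetochore, differed by -1.36 ± 0.44. Top2a, the topoisomerase that separates sister DNA, was at 1.49, 2.15, 2.62, 4.83 and 3.14 in newborn lineages and at 2.54 to 4.85 in mid-interval lineages. Its difference was -1.35 ± 0.52, or -1.78 ± 0.50 without the pair. It was the only one of 21 condensation and cohesion genes at unadjusted p under 0.05 (4.76%, background 1.45%). The regulators FoxM1, B-Myb and MuvB had a median of -0.10 over 12 genes, 1 of them higher in newborn cells at unadjusted p under 0.05 (8.33%, background 2.66%). Foxm1 itself differed by -0.37 ± 0.37. The study's own list of genes annotated to the cell cycle, 666 of them tested, had a median of 0.08. At unadjusted p under 0.05, 18 (2.70%, background 2.66%) were higher in newborn and 29 (4.35%, background 1.45%) in mid-interval cells, so that the newborn share was that of all genes.

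**Figure D5:**
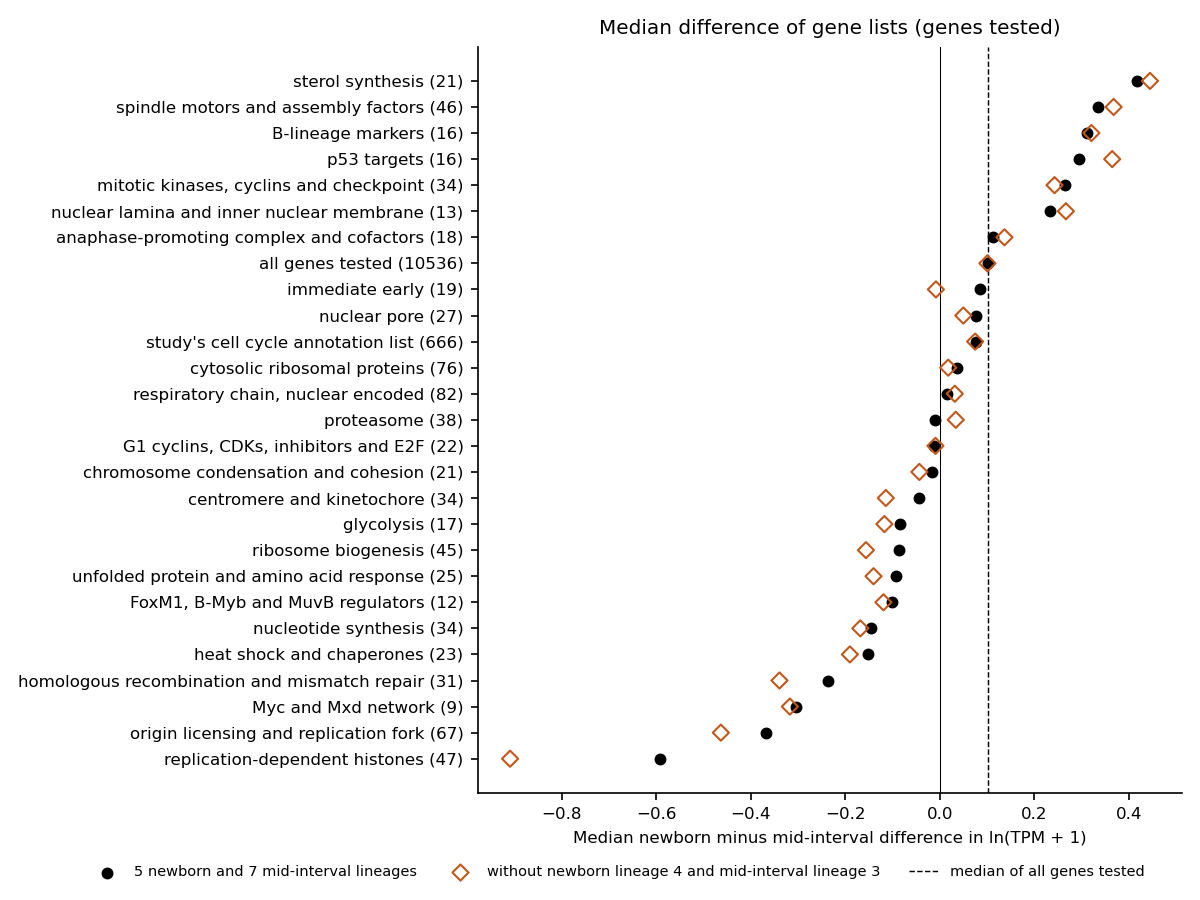
Median newborn minus mid-interval difference in ln(TPM + 1) (x axis) of all lists with at least 9 genes tested, with the number tested in parentheses, over all lineages (black) and without newborn lineage 4 and mid-interval lineage 3 (orange diamonds). Histones are lowest with -0.59, or -0.91 without the pair, and the dashed line marks the 0.10 of all genes.

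The promoters of some of these genes are shown, since cell cycle genes carry known elements there. The element TTTGAA (the CHR, bound by MuvB complexes) often acts with CCAAT boxes in mitotic genes, and TTTGGCGC and TTTCCCGC are E2F sites of G1/S genes. Both strands of the 250 bases before the start were searched in RefSeq promoters of GRCm38, which matched 7877 of the 10536 genes tested. This is 74.8% of them, under the 80% set for such a check, so a comparison with all genes is void and the shares below describe the matched promoters only. Of all matched promoters, 10.7% held TTTGAA, 37.7% held CCAAT and 2.91% held an E2F site. Of the 198 matched genes higher in newborn cells at unadjusted p under 0.05, 20 held TTTGAA (10.1%), and of the matched genes higher in mid-interval cells 10 did (9.52%). Among lists, 12 of the 38 matched spindle genes held TTTGAA (31.6%) and 26 held CCAAT (68.4%), and 6 of the 23 matched mitotic kinase, cyclin and checkpoint genes held TTTGAA (26.1%). Of the 54 matched replication genes, 10 held an E2F site (18.5%) and 6 held TTTGAA (11.1%). No histone gene was matched. The 120 bases before the start are printed 5′ to 3′ on the strand of the gene, with the elements in capitals (ATTGG and TTCAAA are CCAAT and TTTGAA on the other strand).
Cdc20, chr4:118437344-118437463, minus strand: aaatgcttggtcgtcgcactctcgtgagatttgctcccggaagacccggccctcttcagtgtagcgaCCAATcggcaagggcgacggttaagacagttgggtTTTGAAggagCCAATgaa
Kif22, chr7:127042421-127042540, minus strand: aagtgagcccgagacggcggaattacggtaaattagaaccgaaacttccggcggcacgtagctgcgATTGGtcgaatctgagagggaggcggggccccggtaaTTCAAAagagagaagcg
Kpna2, chr11:106999526-106999645, minus strand: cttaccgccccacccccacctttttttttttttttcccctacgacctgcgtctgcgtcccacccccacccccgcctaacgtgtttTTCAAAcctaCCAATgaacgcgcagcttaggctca
Mcm3, chr1:20820313-20820432, minus strand: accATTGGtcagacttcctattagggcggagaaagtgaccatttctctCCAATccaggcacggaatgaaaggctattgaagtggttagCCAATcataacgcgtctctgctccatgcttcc
Cdc20 and Kif22, higher in newborn cells, and Kpna2, higher in mid-interval cells, all held both elements within this window, with TTTGAA beginning 18, 17 and 35 bases before the start. Mcm3 held CCAAT at 3 places and no TTTGAA. These matches describe the letters only.

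Of the 16 p53 targets 10 were higher in newborn cells, near the 61.8% of all genes. Their median was 0.30, which was 0.18 without newborn lineage 5 and 0.19 without mid-interval lineage 2. The medians of all genes were 0.08 and -0.03 in these fits. At unadjusted p under 0.05 were 3 of the targets, all higher in newborn cells (18.8%, background 2.66%). These were the death receptor Tnfrsf10b (1.17 ± 0.46), the autophagy factor Trp53inp1 (0.70 ± 0.32) and the RNA-binding protein Zmat3 (1.08 ± 0.50). Without the pair Trp53inp1 differed by 0.615 ± 0.373. Among 23 heat shock and chaperone genes, 19 were higher in mid-interval cells, as were 4029 of all 10536 genes tested. Of the 23 genes, 4 were higher in mid-interval cells at unadjusted p under 0.05 (17.4%, background 1.45%), and the median was -0.15. Hspd1 and Hspe1, the mitochondrial chaperonin pair, differed by -0.29 ± 0.11 and -0.30 ± 0.12, and the cytosolic chaperone Hsp90aa1 by -0.36 ± 0.14. Without the pair, Hspe1 and Hsp90aa1 differed by -0.38 ± 0.13 and -0.46 ± 0.15. The response to unfolded protein and amino acid shortage had 2 of 25 genes at unadjusted p under 0.05 (8%, background 1.45%), both higher in mid-interval cells. Its factor Atf4 differed by -0.39 ± 0.17.

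In the nuclear lamina list, 1 of 13 genes was higher in newborn cells at unadjusted p under 0.05 (7.69%, background 2.66%). This was Sun2, an inner nuclear membrane protein that couples the nucleus to the cytoskeleton, at 2.77, 3.75, 3.96, 3.88 and 4.08 in newborn lineages and 0.72 to 3.73 in mid-interval lineages (1.71 ± 0.54). None of 27 nuclear pore, 76 cytosolic ribosomal protein, 21 sterol synthesis, 19 immediate early and 9 Myc network genes was at unadjusted p under 0.05, where 4.11% of all genes were. Their medians were 0.08, 0.04, 0.42, 0.09 and -0.30. The median of sterol synthesis ranged from 0.08 to 0.61 with 1 lineage left out. Of 38 proteasome genes 2 (5.26%), of 82 respiratory chain genes 1 (1.22%) and of 45 ribosome biogenesis genes 1 (2.22%) were at unadjusted p under 0.05. Each was higher in mid-interval cells (background 1.45%). Of 17 glycolysis genes 1 was below this p in each direction (5.88%, background 2.66% for newborn and 1.45% for mid-interval cells). Myc itself differed by -0.80 ± 0.40.

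Among markers of lineage, Blnk, the adaptor of B-cell receptor signalling, was higher in every newborn lineage (5.4 to 5.83) than in every mid-interval lineage (4.37 to 5.33), a difference of 0.80 ± 0.21 (unadjusted p = 0.00113), and was the only one of 16 B-lineage markers at unadjusted p under 0.05 (6.25%, background 2.66%). Of these markers 13 were higher in newborn cells, where 61.8% of all genes were. Cd79b, a chain of the receptor, differed by 0.68 ± 0.54, and by 0.12 without mid-interval lineage 2. The T-cell marker Cd8b1 was above 0 in 7 newborn and 5 mid-interval cells, with newborn lineage means of 0.82 to 2.97 and mid-interval means of 0 to 0.57, and its difference was 1.11 ± 0.34. This was 1 of 4 T-cell markers that passed the filter, while Cd3e and Cd3g were at 0 throughout.

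The same contrast in CD8+ T-cells, 15 newborn and 44 mid-interval cells of 7 and 14 lineages, was set beside that of L1210 cells in 1 fit over 9160 genes. No gene's difference differed between the cell types at an adjusted p of 0.05 (limma interaction, 0% called), and 344 did at unadjusted p under 0.05 (3.76%). The lowest adjusted p was 0.171, for Ung among others. Ung was higher in newborn than in mid-interval CD8+ T-cells by 2.23 ± 0.53, and the L1210 difference was lower than that by 3.98 ± 0.85 (written newborn minus mid-interval, limma adjusted p = 0.171). Mcm3 and Uhrf1 differed by 0.58 ± 0.26 and 0.70 ± 0.35 in CD8+ T-cells, against -1.11 and -1.42 in L1210 cells (adjusted p of the interaction = 0.449 and 0.573). Of the 4 histones described above, Hist1h2ao differed by -1.35 ± 0.34, Hist2h3c2 by -1.31 ± 0.58, Hist2h3b by -1.05 ± 0.49 and Hist1h2ab by -0.47 ± 0.60 in CD8+ T-cells, and Kpna2 by -1.54 ± 0.37. Kif22 had opposite signs, -1.39 ± 0.45 in CD8+ T-cells against 1.5 in L1210 cells (adjusted p of the interaction = 0.449), and Cdc20 was 0.48 ± 0.24 in CD8+ T-cells.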

How the data were processed

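Single L1210 cells and CD8+ T-cells were sequenced by Smart-Seq2. The authors aligned reads to mm10 and deposited expression as TPM on a linear scale, over 23420 gene names and 194 libraries that sum to 1000000 each. The submitters' processing notes name TopHat2 and RSEM 1.2.3. TPM keep no depth, so counting error could not be computed, and detected genes stand in for it.

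Doublets and libraries under 1000 genes above 0 TPM were left out. TPM were taken as ln(TPM + 1) and averaged over the cells of a lineage. A gene was kept when it exceeded 1 on this scale in more than 10% of the 81 L1210 cells, and 10536 were. Differences were fitted with limma 3.58.1 (eBayes with trend, R 4.3.3), adjusted after Benjamini and Hochberg. The code was tested on simulated data. Detected genes and Rn45s were compared by exact permutation of lineages. Members and gene lists were chosen with earlier results of these data known. Named genes are a fixed list of cell cycle regulators and up to 4 genes of lowest p in each list, of which not every one is given, and Ifi27l2a was named after its value was seen. Coordinates come from GENCODE vM21 and RefSeq on GRCm38, the same assembly as mm10. The alternatives were pseudocounts of 0.1 and 10 TPM, gene and cell filters, rescaling, weights, summaries over cells, time limits, and lineages left out. Python 3.11.15, numpy 2.4.6, pandas 2.3.3, scipy 1.17.1 and matplotlib 3.10.9 were used.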

Additional observations from a re-analysis of the deposited data

Results flagged for a closer look

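In 13 of the 126 groups of lineages examined, counting each reported gene and technical measure in newborn and in mid-interval lineages, a lineage lay far from the others by Dixon's ratio, and chance flags about 1 in 20 groups. Newborn lineage 4 was such a lineage for Hist1h2ab (5.19, next 1.27), Ung (3.77, next 2.12), Fancg (2.66, the others at 0) and Hsp90aa1 (6.29, next 5.87). Newborn lineage 5 was high for Cd8b1 (2.97, next 1.10) and newborn lineage 1 low for Sun2 (2.77, next 3.75). Mid-interval lineage 2, which had the fewest detected genes, was high for Slbp (5.91, next 5.02) and low for Gmnn (2.77, next 4.83), Pttg1 (2.44, next 4.62), Fbxo5 (1.48, next 3.0) and Cd79b (1.79, next 5.32). Mid-interval lineage 4 was high for Cdkn1a (3.74, the others at 0) and mid-interval lineage 5 low for Hist2h3c2 (4.95, next 6.14). The causes were not tested.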

How the results depend on the processing

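No gene passed the adjusted threshold in any of the alternatives for all lineages. Leaving out newborn lineage 4 gave 5 genes higher in mid-interval cells, leaving out any other single lineage 0, and leaving out newborn lineage 4 with mid-interval lineage 3 gave 4. These counts follow the known high histone values of newborn lineage 4 and support no call. No setting gave a call for genes higher in newborn cells. The difference between cell types was run in 10 alternatives and, added after seeing the data, without each of the 12 L1210 lineages, and none gave a call. Genes at unadjusted p under 0.05 numbered 280 and 153, and 281 and 423 with detected genes as a covariate, 280 and 314 with at least 4000 detected genes, 243 and 329 without newborn lineage 4, 238 and 422 without mid-interval lineage 2, and 433 and 110 without mid-interval lineage 3 (newborn higher given first). The cause was not tested. The detected genes differed by -34.6 to 851 and the Rn45s share by -0.0398 to 3.05% with 1 lineage left out, the lowest values being without mid-interval lineage 2 and newborn lineage 3, and neither passed the test. The 4 histones kept their sign throughout, Hist1h2ao between -1.65 and -2.72 and Hist2h3c2 between -2.28 and -4.25, and Cdc20 between 0.74 and 1.08.

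The named genes that changed sign passed the threshold in no setting. Ccnd2 became -0.002 with 10 TPM added, -0.07 with at least 4000 genes, -0.023 with median-of-ratios scaling, -0.028 with the covariate, -0.037 with medians, -0.045 with ln of the mean TPM, -0.031 with newborn limits of 1.5 h and -0.02 with mid limits of 3.5 h. E2f1 became -0.04 with the covariate, -0.019 with weights, -0.012 with medians and -0.044 with mid limits of 5.5 h. Cdt1 became 0.044 with weights and 0.015 with cells in lineage blocks, Cdkn1b 0.016 with 10 TPM and 0.116 with ln of the mean TPM, and Foxm1 0.034 with mid limits of 5.5 h. Aurka became 0.107 with medians, 0.154 with ln of the mean TPM, 0.173 with newborn limits of 1.5 h and 0.219 with mid limits of 5.5 h. With 1 lineage left out the ranges were -0.172 to 0.071 for Cdt1, -0.043 to 0.442 for E2f1, -0.106 to 0.11 for Ccnd2, -0.159 to 0.133 for Cdkn1b, -0.434 to 0.218 for Aurka and -0.036 to 0.323 for Ccnb1.

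No paired analysis was possible because newborn and mid-interval lineages were different lineages and the labels number no replicates across groups. TPM keep no depth, so a gene listed at 0 is not shown to be absent.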
